A study of Caenorhabditis elegans with 10 samples.

Results

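Ribosome footprints on 10 genes that encode the contractile filaments of *C. elegans* body wall and pharynx muscle were followed as adult animals were cooled. The genes were chosen by name: the myosin heavy chains unc-54, myo-3, myo-1 and myo-2, the paramyosin unc-15, the myosin light chains mlc-1, mlc-2 and mlc-3, the tropomyosin lev-11 and the troponin T mup-2. They are 10 of the 19985 genes in the deposited table and cover 33 of its 31865 transcripts. Where a gene had several transcripts, the one with the highest mean value over the 5 conditions was used, and all 10 genes passed the minimum mean value of 1 FPKM, as 9945 genes did. The unit, FPKM, divides the footprints on a coding sequence by its length and by the column's total, so it gives a share of each condition's footprints and not an absolute rate of synthesis.

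Every sample was whole wild-type N2 animals, grown from synchronised L1 larvae to adults 1 day old at 20°C. The first group was collected then, the second after 2 hours at 10°C by the protocol text (3 hours by the treatment tag), and the last 3 groups went on from 10°C to 4°C, where they stayed for 1 day, 3 days or 5 days. For the last group the title says 5 days and the treatment tag 3 days, and the title was followed. Each of the 5 groups had 2 biological replicates, but the table holds a single pooled value per group, so no spread between replicates, SD or p-value can be given. Because the 20°C animals were collected at the start, an effect of temperature and one of time or age cannot be told apart.

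Muscle contracts when thick filaments of myosin slide along thin filaments of actin. Each myosin molecule has a pair of heavy chains, which carry the motor, and each heavy chain binds an essential and a regulatory light chain. In *C. elegans* the thick filament is built around a core of paramyosin, and the thin filament carries tropomyosin and the troponin complex, through which calcium controls contraction. Body wall muscle uses the heavy chains UNC-54 (myosin heavy chain B, the major form) and MYO-3 (heavy chain A, found in the middle of the filament). Pharynx muscle, which pumps food, uses MYO-1 and MYO-2.

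The genes lie on 4 chromosomes of the WBcel235 assembly. unc-54 (WBGene00006789) spans 14855901 to 14863482 on the minus strand of chromosome I, with 9 coding exons and 5892 coding nucleotides (nt), and lev-11 spans 14621169 to 14631094 on the same strand. Also on chromosome I, minus strand, are myo-1 (7258946 to 7267057) and unc-15 (7376604 to 7383197). myo-3 is on chromosome V (12226817 to 12234343, minus strand), mlc-3 on chromosome III (5565025 to 5567382, plus strand) and myo-2 on chromosome X (12468061 to 12475348, plus strand). mup-2 is on chromosome X as well (6408471 to 6410227, minus strand). The regulatory light chain genes mlc-2 (17455792 to 17456586, minus strand) and mlc-1 (17459210 to 17460778, plus strand) stand back to back on chromosome X with 2623 bases between them. They encode near-identical proteins, and how reads that match both were assigned was not analysed here, so values for mlc-1 and mlc-2, and for stretches shared among the heavy chains, are uncertain to that extent. No coding sequence of the 10 genes overlapped that of another gene.

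Whole footprint counts could be recovered for each value. The columns held 675550 (20°C), 486109 (10°C), 2657757, 2981339 and 3058810 counts (1, 3 and 5 days at 4°C) over all transcripts, so the deepest was 6.29 times the shallowest. A single count on 1000 coding nt made 2.06 FPKM in the 10°C column and 0.327 FPKM in that of day 5, and the fewest counts on a member were 15, on myo-1 at 10°C. Intervals given below are 95% intervals that cover counting error only, not the difference between animals. A difference of 2-fold was judged on log2(FPKM + 0.5). In whole animals, footprint values alone cannot tell apart fewer muscle cells and less RNA or translation per cell. Total RNA, which the study also sequenced, was not used here.

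As a group, the sarcomere genes held a much smaller share of footprints after the first day at 4°C, and that of unc-54 fell further on each later day measured. Counting 1 transcript per gene, the 10 genes took 0.357% of all counts at 20°C (Wilson interval 0.340 to 0.376%) and 0.384% at 10°C (0.362 to 0.406%). The share was 0.200% after 1 day (0.193 to 0.207%), 0.189% after 3 days (0.183 to 0.196%) and 0.156% after 5 days at 4°C (0.150 to 0.162%). The intervals at 20°C and 10°C overlapped, all 3 at 4°C lay below both, and day 5 lay below day 1 and day 3.

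**Figure D1:**
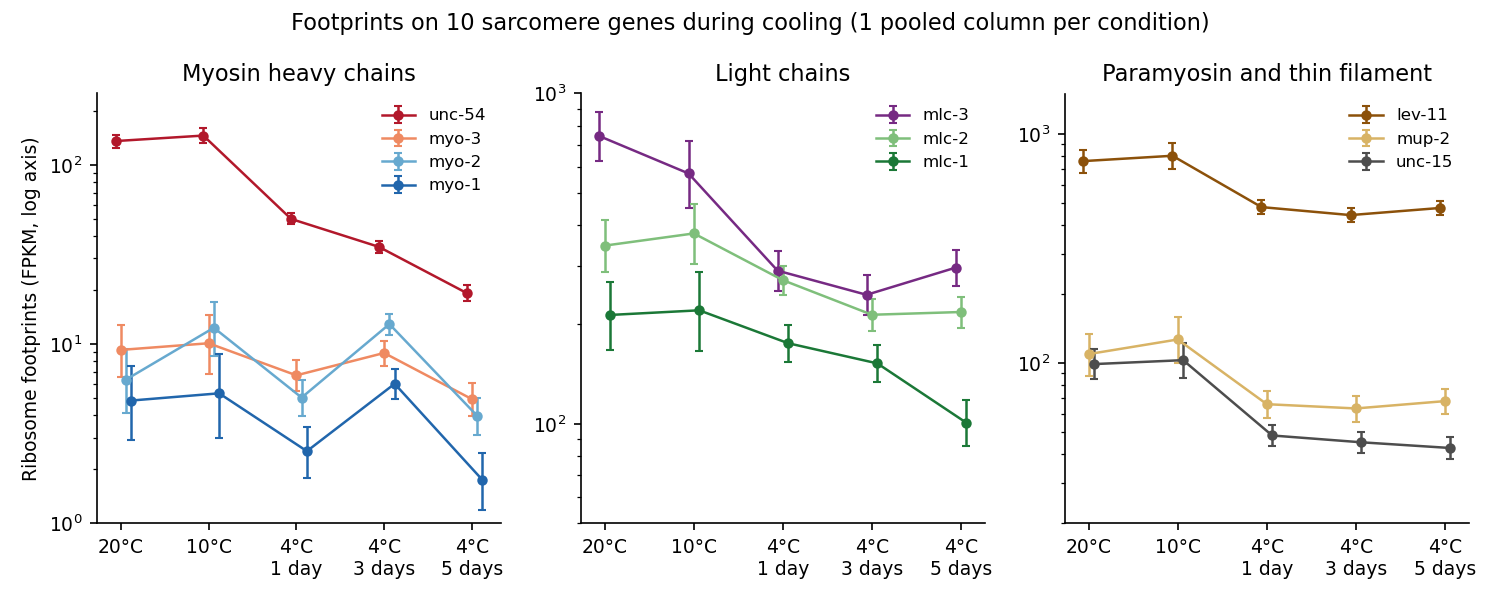
Footprint level (FPKM, log axis) of each of the 10 genes in the 5 conditions, grouped by role. Points are the single pooled value per condition and bars are 95% Poisson counting intervals. unc-54 went from 136 to 19.3 FPKM, while myo-2 and myo-1 reached 12.9 and 6.00 FPKM on day 3 and lay lower on days 1 and 5.

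The body wall heavy chains parted company in the cold. unc-54 stood at 136 FPKM at 20°C, 146 at 10°C, 49.9 after 1 day, 34.8 after 3 days and 19.3 after 5 days at 4°C, from 540, 417, 781, 612 and 347 counts. Its level was alike at both warm points and was lower at each later one, with no overlap between the intervals of successive days. It was 2.92-fold lower on day 1 than at 10°C (interval 2.59 to 3.29), 1.43-fold lower on day 3 than on day 1 (1.29 to 1.59) and 1.81-fold lower on day 5 than on day 3 (1.58 to 2.07). From 20°C to day 5 the fold was 7.05 (6.15 to 8.09). Its rank among the 9945 genes went from 724 to 3292.

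myo-3, the other body wall heavy chain, stood at 9.27, 10.1, 6.68, 8.91 and 4.92 FPKM in the same order, from 37, 29, 105, 157 and 89 counts. It had no steady downward course. Its ratio of day 1 to 10°C was 0.662 (0.435 to 1.04), which did not leave out 1, and day 3 was higher than day 1, with a ratio of 1.33 (1.03 to 1.72). Day 5 was 1.81-fold lower than day 3 (1.39 to 2.37) and 1.88-fold lower than 20°C (1.25 to 2.79).

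The pharynx heavy chains had low levels, which were higher on day 3 than on days 1 and 5. myo-2 stood at 6.33 FPKM at 20°C, 12.3 at 10°C, 5.02 after 1 day, 12.9 after 3 days and 3.97 after 5 days at 4°C, from 25, 35, 78, 225 and 71 counts. myo-1 stood at 4.84, 5.30, 2.52, 6.00 and 1.74 FPKM, from 19, 15, 39, 104 and 31 counts. Both were lowest on days 1 and 5, and their day 3 and 10°C intervals overlapped. The ratio of day 1 to 20°C was 0.793 for myo-2 (0.500 to 1.30), which includes 1, and 0.522 for myo-1 (0.294 to 0.956). The ratio of day 3 to day 1 was 2.57 for myo-2 (1.98 to 3.37) and 2.38 for myo-1 (1.63 to 3.53), and day 5 was 3.25-fold lower than day 3 for myo-2 (2.48 to 4.31) and 3.44-fold lower for myo-1 (2.29 to 5.32). myo-2 was also the only member whose interval left out 1 between 10°C and 20°C, with a ratio of 1.95 (1.13 to 3.39) on 60 counts in all. Across the whole course the difference on myo-2 was not clear at this depth, since its ratio of day 5 to 20°C was 0.627 (0.393 to 1.03), while myo-1 was 2.78-fold lower (1.48 to 5.07). The other listed markers of pharynx muscle, the troponin genes tnt-4, tni-4 and tnc-2, did not all share the day 3 course. On days 1, 3 and 5 tnt-4 stood at 5.05, 4.82 and 1.88 FPKM, tni-4 at 25.1, 33.3 and 31.3, and tnc-2 at 14.8, 29.2 and 12.9. They had 6 to 58 counts on those days.

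On its long transcript, paramyosin was lower from day 1 on, with no further difference between successive cold days beyond counting error. unc-15 stood at 98.9 FPKM at 20°C, 103 at 10°C, 48.3 after 1 day, 45.1 after 3 days and 42.6 after 5 days at 4°C, from 175, 131, 336, 352 and 341 counts. The warm values overlapped each other, and so did the cold ones, with a gap between the 2 sets. Day 1 was 2.13-fold lower than 10°C (1.73 to 2.62), and the later ratios were 0.934 (0.802 to 1.09) for day 3 to day 1 and 0.944 (0.811 to 1.10) for day 5 to day 3. The gene also has a shorter transcript, whose coding sequence is the last 1662 nt of the long one. Footprints were denser before that stretch than in it: the first 957 nt held 173, 200, 92.4, 87.6 and 88.5 FPKM, and the last 1662 nt held 56.1, 47.0, 22.9, 20.6 and 16.1 FPKM. The ratio of first to last stretch was 3.09 at 20°C (2.25 to 4.27) and 5.49 on day 5 (4.26 to 7.12), with intervals that just overlapped, and both stretches had less on day 1 than at 10°C. From 20°C to day 5 the shorter transcript was 3.48-fold lower and the long one 2.32-fold.

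All 3 light chains were lower on day 5 than at 20°C, along different courses. mlc-3, the essential light chain, stood at 743 FPKM at 20°C, 573 at 10°C, 291 after 1 day, 246 after 3 days and 297 after 5 days at 4°C, from 137, 76, 211, 200 and 248 counts. Its cold values overlapped each other below both warm ones. It was 1.97-fold lower on day 1 than at 10°C (1.49 to 2.57) and 2.50-fold lower on day 5 than at 20°C (2.02 to 3.09). The transcript used here has only 273 coding nt. On the longer one, of 462 nt, the same folds were 2.11 and 2.52, so the first of them passes 2-fold on that transcript.

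The regulatory light chain mlc-1 stood at 214, 221, 175, 152 and 101 FPKM, from 74, 55, 239, 233 and 158 counts. mlc-2 stood at 346, 377, 272, 214 and 218 FPKM, from 120, 94, 371, 327 and 342 counts. mlc-1 was clearly lower only late, and mlc-2 by days 1 and 3. For mlc-1 the ratio of day 1 to 10°C was 0.795 (0.591 to 1.09), with day 5 then 1.51-fold lower than day 3 (1.23 to 1.86) and 2.12-fold lower than 20°C (1.59 to 2.81). mlc-2 was 1.39-fold lower on day 1 than at 10°C (1.09 to 1.74) and 1.27-fold lower on day 3 than on day 1 (1.09 to 1.48), but its ratio of day 5 to day 3 was 1.02 (0.873 to 1.19), an interval that does not overlap that of mlc-1 (0.537 to 0.812).

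The thin filament members had similar courses. lev-11, tropomyosin, which lies along actin and blocks or frees the sites where myosin binds, stood at 760 FPKM at 20°C, 802 at 10°C, 479 after 1 day, 442 after 3 days and 475 after 5 days at 4°C, from 299, 227, 741, 767 and 845 counts. mup-2, troponin T, which ties troponin to tropomyosin, stood at 109, 127, 66.1, 63.3 and 68.2 FPKM, from 90, 75, 214, 230 and 254 counts. Both had high warm values, lower cold ones, and no difference among the cold days beyond counting error. lev-11 was 1.67-fold lower on day 1 than at 10°C (1.44 to 1.95) and mup-2 1.92-fold lower (1.45 to 2.50). From 20°C to day 5 both were 1.60-fold lower (lev-11 1.40 to 1.83, mup-2 1.25 to 2.05). The 20 transcripts of lev-11, which share exons and are not independent, were 1.57-fold to 1.74-fold lower on day 1 than at 10°C and 1.35-fold to 1.85-fold lower on day 5 than at 20°C.

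**Figure D2:**
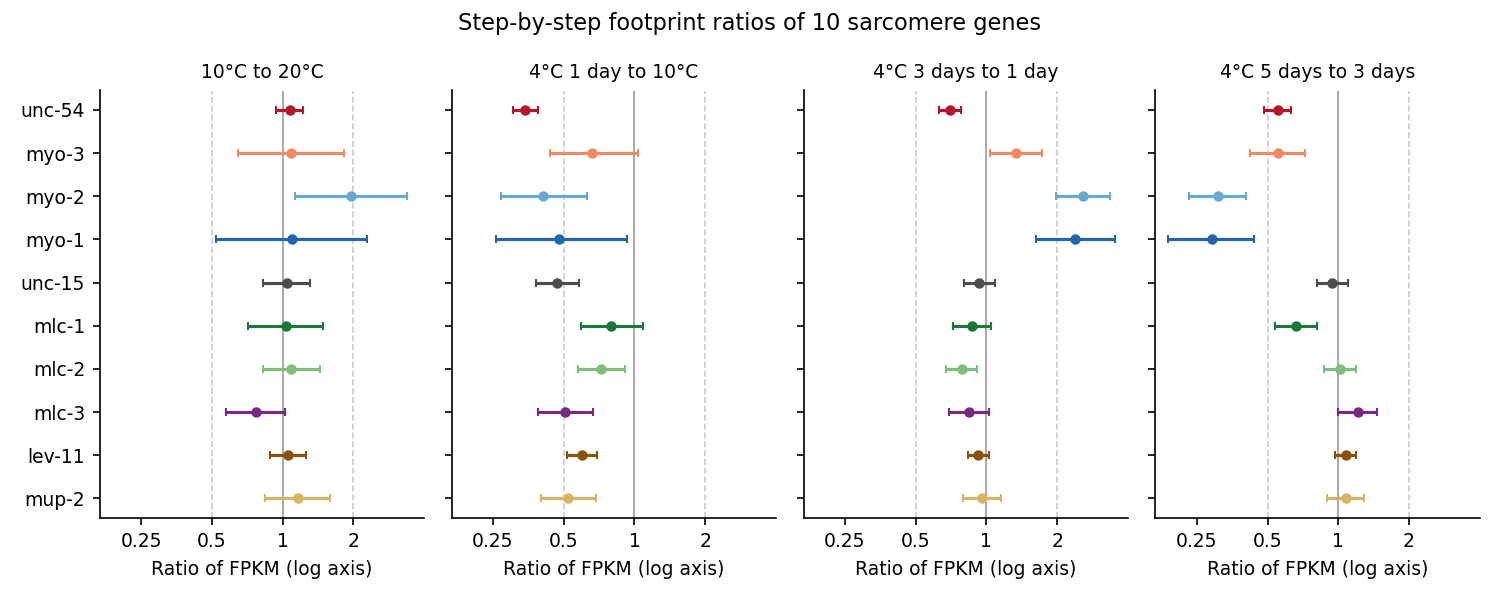
Ratio of FPKM between successive conditions (log axis) for the 10 genes, from the warmer or earlier to the colder or later condition. Points are ratios of pooled values, bars are 95% Clopper-Pearson counting intervals, and dashed lines mark 2-fold. All 10 points lie below 1 in the step from 10°C to day 1, and the points of myo-2 and myo-1 lie at 2.57 and 2.38 in the next step and at 0.308 and 0.291 in the last.

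Set side by side, the steps differed in which members moved. From 20°C to 10°C none of the 10 was 2-fold lower, as 9.1% of the 9945 genes were, and none was 2-fold higher, as 12.2% were. The interval was above 1 for myo-2 alone, as for 2.23% of the 4972 genes with at least 10 counts. The member median was 0.11 and that of all genes 0.06 on the log2 scale.

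The first day at 4°C carried most of the drop. Against 10°C, unc-54, myo-2 and unc-15 were at least 2-fold lower (3 of 10, where 14.5% of all genes were) and none was higher (17.8%). The background holds many genes of few counts. Among the 3813 genes with at least 50 counts over both columns, a minimum chosen after seeing the data, it was 4.51%. The whole interval lay below 1 for 8 of 10 members, against 7.73% of 7298 genes, and the other 2 were myo-3 and mlc-1. The member median was -0.94 and that of all genes 0.10. Of the 3813 genes, 76 had a larger drop than unc-54.

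From day 1 to day 3 the members split. myo-2 and myo-1 were at least 2-fold higher (2 of 10, against 5.38% of all genes and 2.25% of the 5189 with at least 50 counts), and none was 2-fold lower (6.78%). The call on myo-1 rests on the pseudocount, since with 1 FPKM added in place of 0.5 its log2 difference was 0.99. Intervals lay above 1 for myo-1, myo-2 and myo-3 (3 of 10, against 11.1% of 8144 genes) and below 1 for unc-54 and mlc-2 (2 of 10, against 10.8%), which is close to the background for the second count. Of the 5189 genes, 69 had a larger rise than myo-2 and 91 than myo-1.

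From day 3 to day 5 the heavy chains and mlc-1 were lower, and the intervals of the other 5 members included 1. myo-1 and myo-2 were at least 2-fold lower (2 of 10, against 14.7% of all genes and 7.9% of the 5180 with at least 50 counts), and none was higher (2.85%). Intervals lay below 1 for the 4 heavy chains and mlc-1 (5 of 10), where 18% of 7961 genes had such an interval. The member median was -0.34 and that of all genes -0.08.

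The comparisons with 20°C share that column and are not independent of each other. On day 1, unc-54, mlc-3 and unc-15 were at least 2-fold lower (3 of 10, against 12.2% of all genes) and none was higher (19.7%). On day 5, unc-54, mlc-3, unc-15, myo-1 and mlc-1 were at least 2-fold lower (5 of 10, against 21.5% of all genes and 9.87% of the 4092 with at least 50 counts), and none was higher (23.6%). Intervals lay below 1 for all members but myo-2 (9 of 10, against 14.6% of 7105 genes). The member medians were -0.69 and -0.96, and those of all genes 0.18 and 0.13.

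The order of the levels was steady at its top and bottom and changed in the middle. lev-11 was highest in each condition, followed by mlc-3, mlc-2 and mlc-1, although the intervals of lev-11 and mlc-3 overlapped at 20°C and 10°C, and those of mlc-3 and mlc-2 at 10°C and on days 1 and 3. unc-54, mup-2 and unc-15 came next at 20°C and 10°C, with overlapping neighbours. From day 1 on mup-2 stood above unc-54, and from day 3 on unc-15, on its long transcript, did too, without overlap. myo-3, myo-2 and myo-1 filled the last places throughout, with myo-2 above myo-3 at 10°C, where they overlapped, and on day 3, where they did not.

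Because FPKM is divided by length, partners of the filament can be compared within a column, where the column total cancels out. A difference between columns that depends on coding length, described below, does not cancel. The ratio of myo-3 to unc-54 was 0.0683 at 20°C (0.0476 to 0.0954), 0.0693 at 10°C (0.0459 to 0.101), 0.134 on day 1 (0.108 to 0.165), 0.256 on day 3 (0.213 to 0.305) and 0.256 on day 5 (0.200 to 0.324). The balance was the same at both warm points, shifted towards the minor form on day 1 and again on day 3, and then held.
The ratio of paramyosin to unc-54 was 0.729 (0.611 to 0.866), 0.707 (0.576 to 0.862), 0.968 (0.849 to 1.10), 1.29 (1.13 to 1.48) and 2.21 (1.90 to 2.57) in the same order. On its long transcript, paramyosin moved from below unc-54 to well above it. The last 1662 nt of that transcript alone stayed below unc-54 in each condition, at 16.1 FPKM on day 5 next to 19.3 for unc-54.

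The pharynx heavy chains together, myo-1 and myo-2, had a ratio to those of the body wall, unc-54 and myo-3, of 0.0771 at 20°C (0.0567 to 0.105), 0.113 at 10°C (0.0845 to 0.152), 0.133 on day 1 (0.110 to 0.162), 0.432 on day 3 (0.380 to 0.492) and 0.236 on day 5 (0.191 to 0.293). Day 3 stood above each other condition without overlap. Within the pharynx pair the ratio of myo-1 to myo-2 was 0.764 (0.397 to 1.44), 0.431 (0.218 to 0.809), 0.502 (0.333 to 0.747), 0.464 (0.364 to 0.588) and 0.439 (0.278 to 0.678), and all of these intervals overlapped. The summed light chains had a ratio to the summed heavy chains of 8.34 (7.27 to 9.58), 6.75 (5.74 to 7.95), 11.5 (10.5 to 12.7), 9.76 (8.88 to 10.7) and 20.6 (18.4 to 23.1), with day 5 above the rest. The light chain transcripts have 273 to 513 coding nt and those of the heavy chains 5817 to 5910. The part of length in this ratio was not tested. A ratio of footprints is not a ratio of proteins, which also depends on how long each protein lasts.

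**Figure D3:**
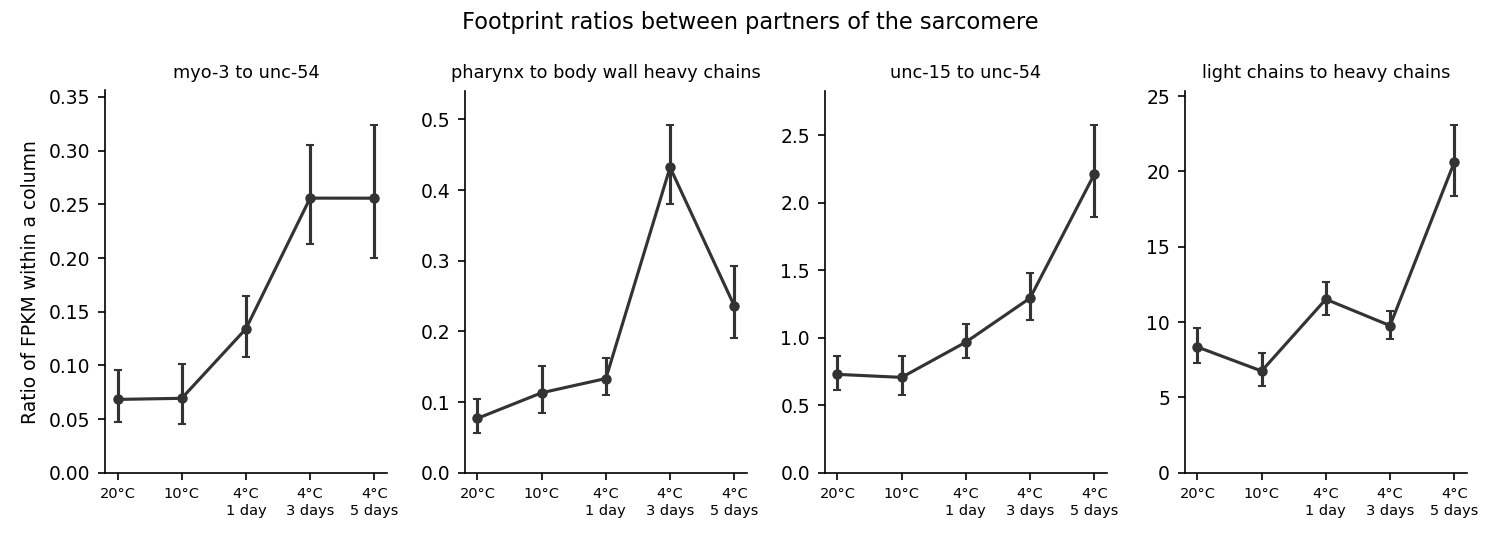
Ratios of FPKM within each column for 4 pairs or groups of sarcomere genes, with axes that start at 0. Points are ratios of pooled values and bars are 95% counting intervals. The ratio of myo-3 to unc-54 went from 0.0683 to 0.256, that of pharynx to body wall heavy chains peaked at 0.432 on day 3, and those of unc-15 to unc-54 and of light to heavy chains were highest on day 5, at 2.21 and 20.6.

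Counted as a share of the 1516 footprint counts on the members at 20°C and the 2726 on day 5, unc-54 went from 35.6% (33.2 to 38.1%) to 12.7% (11.5 to 14.0%). In the conditions between, its share was 36.1%, 25.1% and 19.1%. lev-11 took the largest share on day 5, 31.0% (29.3 to 32.8%), from 19.7% at 20°C (17.8 to 21.8%).

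The 4 heavy chain coding sequences are among the longest in the table, from 5817 to 5910 nt, and coding length moved with the differences between the cold days across all genes. Among genes with at least 50 counts, those of up to 500 nt had a median log2 difference of -0.15 from day 1 to day 3 (804 genes), and those over 5000 nt had 0.20 (124 genes). From day 3 to day 5 the medians were 0.17 (816 genes) and -0.21 (122 genes). The higher day 3 level of myo-2 and myo-1 thus went the way that long coding sequences went, but further: from day 1 to day 3 only 5 of the 124 long genes were at least 2-fold higher, these 2 included, and from day 3 to day 5 18 of 122 were 2-fold lower. Their log2 differences were 1.28 and 1.10 in the first step and -1.58 and -1.53 in the second. unc-54, of nearly the same length, had -0.51 in the first step, below 0 like 35 of the 124. In the second step unc-54 had -0.84, the way that long coding sequences went, with 83 of the 122 below 0. myo-3 had 0.39 and -0.80, the way of the long genes in both steps. In the step from 10°C to day 1 the long genes had a median of 0.29 (107 genes), while unc-54 had -1.54. The part of length in these results was not tested further.

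**Figure D4:**
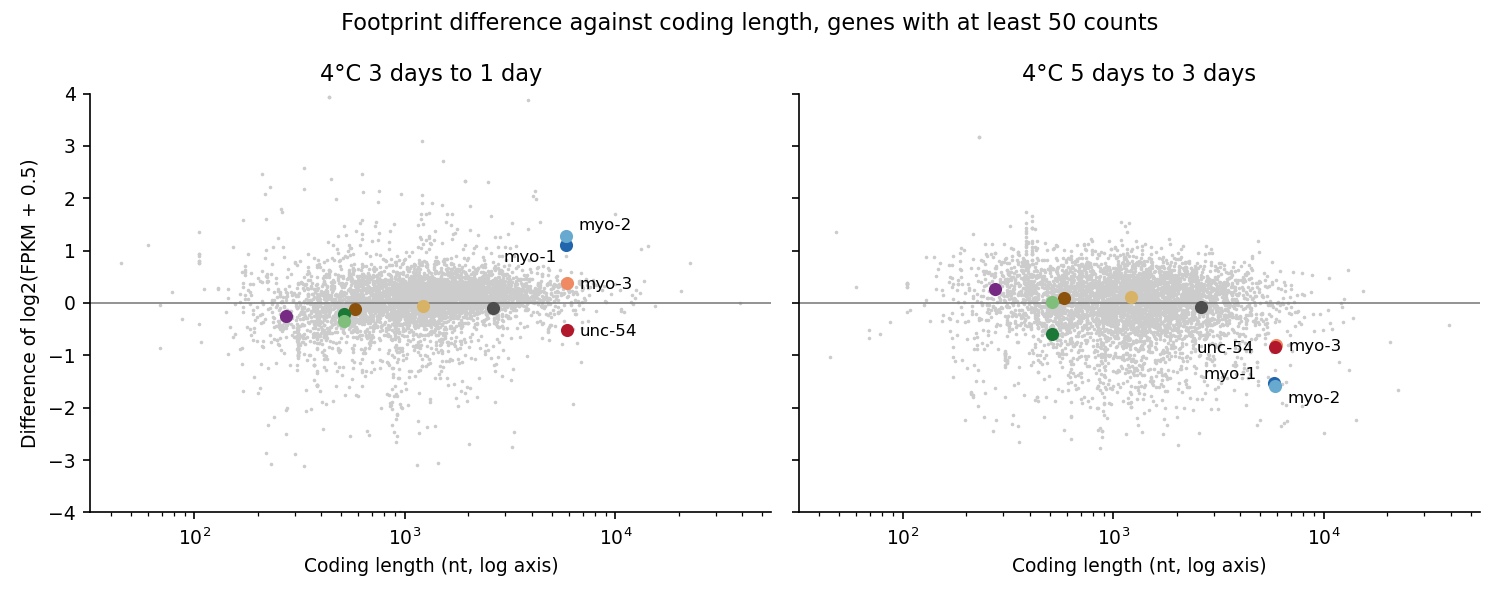
Difference of log2(FPKM + 0.5) against coding length (nt, log axis) for the 5189 and 5180 genes with at least 50 counts (grey) and the members (coloured, the 4 heavy chains named). In the first panel 10 grey points lie beyond the axis. myo-2 and myo-1 lie at 1.28 and 1.10 in the first panel and at -1.58 and -1.53 in the second, while the other genes of similar length lie mostly closer to 0.

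Other muscle genes did not all go down with the members. Of 7 further thick filament genes, 5 passed the minimum mean value. Left out were unc-89, on 2 to 14 counts, and ttn-1, on 20 to 35 counts. ttn-1 went down as well, with 0.670, 1.21, 0.273, 0.266 and 0.200 FPKM in the 5 conditions. Of the 5 that passed, only unc-22 (twitchin, a giant kinase of the filament) was called lower between 10°C and day 1, 3.35-fold (2.05 to 5.38). Of all genes 14.5% were lower in that step and 17.8% higher. In the list, 1 gene was 2-fold higher. That gene was unc-98, an M-line protein, on 1 and 15 counts (ratio 2.74, 0.422 to 115.5). From 20°C to day 5, unc-22 was 4.68-fold lower (2.74 to 8.0) and 2 of the 5 were 2-fold higher, where 21.5% of all genes were lower and 23.6% higher. The second was unc-82, a kinase of the M-line, on 2 and 31 counts. It passed the minimum only through its levels at 4°C (0.666 FPKM at 20°C and 2.28 on day 5), so its call carries no weight here. unc-45, a chaperone that folds myosin heads, stood at 11.3, 13.5, 15.5, 21.04 and 21.3 FPKM in the 5 conditions, with a ratio of day 5 to 20°C of 1.89 (1.21 to 3.08), under the 2-fold rule. Its interval lay above 1, while that of unc-54, whose motor domain the chaperone folds, lay below.

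Of 16 further thin filament genes 15 passed, with 2 at least 2-fold lower on day 1 and none higher, near the 14.5% lower among all genes, and a median of -0.23 on the log2 scale. Those 2 were unc-87 and clik-1, calponin-related proteins that bind actin, 2.64-fold (2.13 to 3.27) and 2.31-fold lower (1.73 to 3.07). On day 5 against 20°C, 2 were lower, clik-1 (2.43-fold, 1.92 to 3.07) and the troponin T gene tnt-4 (on 4 and 6 counts), and 1 was higher, unc-60 (ADF/cofilin, which cuts actin filaments and also has a non-muscle form), with a ratio of 2.20 (1.38 to 3.68). In that comparison 21.5% of all genes were lower and 23.6% higher. unc-87 had by then come back from 90.6 FPKM on day 1 to 192, next to 246 at 20°C. The other troponin genes were mixed on day 1 against 10°C. tnt-2, a second abundant troponin T, stood at 283 and 144 FPKM, with a ratio of 0.509 (0.428 to 0.608), next to 0.522 for mup-2 (0.399 to 0.688). The ratio was 0.850 for unc-27, troponin I, an interval that includes 1 (0.713 to 1.02), and 1.32 for pat-10, troponin C (1.04 to 1.68), whose 10°C level was low for it (472 FPKM at 20°C, 347 at 10°C and 457 on day 1). Of the less abundant genes, tni-3, tni-4 and tnc-2 had ratios of 0.848, 0.793 and 0.579, with intervals that include 1 and overlap that of mup-2. tni-1 stood at 13.7 and 14.0 FPKM at 10°C and on day 1, tnt-4 at 5.91 and 5.05, and tnt-3 at 2.45 and 1.34, on 1 to 28 counts.

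Among attachment genes, those with calls beyond counting error were mostly called late. All 15 genes of the dense bodies and M-lines, which anchor the filaments to the cell membrane, passed the minimum. On day 1, 3 were 2-fold lower (tln-1, unc-95 and uig-1) and 2 higher (atn-1 and pat-6) than at 10°C, near the 14.5% and 17.8% of all genes, with a median of -0.15. The counts at 10°C and on day 1 were 2 and 2 for tln-1, 8 and 20 for unc-95, and 1 and 1 for uig-1. At 10°C 1 count on uig-1 made 25.4 FPKM, so the calls on tln-1 and uig-1 carry no weight here. On day 5, 5 were lower and 1 higher than at 20°C (21.5% and 23.6% of all genes), with a median of -0.55. The higher one was uig-1, on 0 and 1 counts. unc-52, the perlecan of the muscle basement membrane, stood at 21.1, 23.1, 20.8, 12.0 and 3.92 FPKM and was 5.39-fold lower on day 5 than at 20°C (3.95 to 7.36). deb-1 (vinculin) was 2.56-fold lower (1.19 to 5.27) and pat-2 (an integrin alpha chain) 2.91-fold lower (1.11 to 7.22) in the same comparison, on fewer counts. unc-112 (kindlin), with 8 and 6 counts, and alp-1, with 8 and 16, were the others called lower. atn-1, the alpha-actinin that cross-links actin at the dense body, stood at 13.2, 19.2, 39.2, 61.0 and 21.3 FPKM, with a day 1 ratio to 10°C of 2.05 (1.36 to 3.22), a top on day 3 and a day 5 ratio to 20°C of 1.61 (1.05 to 2.58), which is under 2-fold. dim-1, an immunoglobulin-domain protein of muscle, had a day 5 ratio to 20°C of 0.871 (0.604 to 1.29).

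Of 17 genes for calcium handling and excitation only 6 passed. On day 1, 2 were lower (the channels egl-19 and twk-18) and 1 higher (the IP3 receptor itr-1) than at 10°C, with at most 4 counts in 1 or both columns and a median of -0.39. On day 5 the counts against 20°C were 2 (csq-1 and twk-18) and 1 (egl-19), with a median of -0.12. The shares over all genes were 14.5% lower and 17.8% higher on day 1, and 21.5% and 23.6% on day 5. egl-19, twk-18 and itr-1 passed the minimum only through the columns where they were high. csq-1, calsequestrin, which stores calcium, was 2.10-fold lower on day 5 than at 20°C (1.40 to 3.11), and sca-1, the calcium pump of the sarcoplasmic reticulum, had a ratio of 1.09 (0.940 to 1.26). Of 6 transcription factors of muscle and pharynx, 5 passed, and none had an interval that left out 1 in either comparison. pha-4, which specifies the pharynx, had 3 to 44 counts, and unc-120, of body wall muscle, 2 to 19, so neither could be judged at this depth. Of these 5, 2 were higher on day 1 (hlh-1 and hnd-1, median 0.86), and hnd-1 was lower on day 5 (median -0.15), on at most 2 counts in at least 1 column. hnd-1 passed the minimum only through its level at 20°C.

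The light chains that work outside muscle did not share the drop of mlc-1 and mlc-3. In the wider list of 10 non-muscle and unconventional myosins, of which mlc-4 and mlc-5 are the light chains, 8 genes passed, with 1 higher and none lower on day 1 (median 0.35), and 2 lower, hum-4 and hum-5, and none higher on day 5 against 20°C (median -0.03). Among all genes, 17.8% were higher and 14.5% lower on day 1, and 21.5% were lower and 23.6% higher on day 5. The non-muscle regulatory light chain mlc-4 stood at 251, 246, 223, 217 and 251 FPKM, and mlc-5, its essential light chain, at 255, 192, 246, 261 and 255 FPKM. Their ratios of day 5 to 20°C were 1.00 (0.793 to 1.28) and 0.997 (0.773 to 1.30), intervals above those of mlc-1 (0.356 to 0.630) and mlc-3 (0.323 to 0.496). That of mlc-2 (0.510 to 0.782) lay below the interval of mlc-4 and overlapped that of mlc-5. nmy-1, a non-muscle heavy chain, stood at 7.06, 5.61, 13.2, 17.03 and 6.74 FPKM, with a ratio of day 1 to 10°C of 2.36 (1.416 to 4.20), next to 0.343 for unc-54.

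Footprints of other tissues shifted over the same course, and since FPKM is a share of the column, their values stand beside those of the members. The summed level of 6 hypodermis markers, which include cuticle collagens, went from 2039 FPKM at 20°C to 233 on day 1 and 30.8 on day 5, with 0 to 2 of the 6 listed at 0. Of the 4 that passed, 2 were 2-fold lower on day 1 (median -1.96, against 14.5% of all genes) and 4 on day 5 (median -4.25, against 21.5%). The 8 intestine markers, led by the yolk proteins, summed to 13189, 11640, 12016, 8992 and 3078 FPKM, with none at 0, none called on day 1 (median 0.17) and 3 lower on day 5 (median -0.69, against 21.5% of all genes). The 10 germline markers went from 2421 to 4610 FPKM, with none at 0, none called on day 1 (median 0.22) and 2 higher on day 5 (median 0.53, against 23.6% of all genes). cgh-1 weighed most in that sum, at 1069 and 2785 FPKM, while oma-1 went from 242 to 160 and rme-2 from 160 to 144. Intervals of day 5 to 20°C lay above 1 for 7 of the 10 and below for 1, against 25% and 14.6% of 7105 genes.

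Of the smaller tissues, 10 neuron markers summed to 125 FPKM at 20°C and 264 on day 5, with 0 or 1 at 0. Of the 9 that passed, 1 was lower and 2 higher on day 1 (median 0.34), and 1 lower and 5 higher on day 5 (median 1.07). On day 5 the interval lay above 1 for 3 of the 8 with at least 10 counts, against 25% of 7105 genes. Among the 5, rab-3 and unc-64 had 1 count each at 20°C. In the sum, snb-1 alone stood at 80.7 and 170 FPKM. Beside this list and those that follow, 14.5% of all genes were lower and 17.8% higher on day 1, and 21.5% and 23.6% on day 5. The 7 non-muscle pharynx markers summed to 44.5, 64.2, 43.5, 56.8 and 53.1 FPKM, with 0 or 1 at 0. Among the 6 that passed, 1 was lower and 1 higher on day 1 (median -0.04), and 1 was higher on day 5 (median -0.12). The 6 markers of gonad sheath and spermatheca, contractile tissues outside the body wall, summed to 104 FPKM at 20°C and 172 on day 5, with 0 or 1 at 0, and had no call among 5 on day 1 (median 0.19), then 1 lower and 1 higher on day 5 (median -0.49). In that sum fln-1 went from 59.5 to 127 FPKM, inx-8 from 29.6 to 37.3 and inx-9 from 9.02 to 6.26. Of 9 markers of the early embryo, 6 were listed at 0 in each condition up to day 3 and 8 on day 5, and their sum was at most 7.82 FPKM. The part of these shifts in the members' values was not tested.

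Profiles were compared over the 5 pooled values, as log2(FPKM + 0.5) centred on each gene's mean, among 1636 genes with at least 500 counts, and likeness was the largest gap at any of the 5 points. The genes most like unc-54 were cpr-5 (a cathepsin B-like protease, gap 0.29), cpn-3 (a calponin-related protein, 0.30), hach-1 (0.42), asp-2 (an aspartyl protease, 0.45) and let-2 (a collagen IV chain of basement membranes, 0.46). Most like the median of the members were pdha-1 (a pyruvate dehydrogenase subunit, 0.14), R05F9.6 (0.14), tkt-1 (transketolase, 0.17), F58F12.1 (0.18) and vha-2 (a vacuolar ATPase subunit, 0.18). As for some low-count genes above, outside the rule for names and seen first by their values, lev-11 and mup-2 were each among the 5 nearest of the other, at a gap of 0.12, and the nearest to both myo-1 and myo-2 were anc-1 (22623 coding nt) and unc-70 (6774 coding nt), 2 long genes of the cytoskeleton. With 5 points from 5 pooled columns these are descriptions.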

How the data were processed

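Footprints of whole animals were sequenced in 10 samples, 2 per condition. Per the labels and methods, the authors trimmed reads with fastp 0.23.4, mapped them with STAR 2.7.11b to WBcel235 and deposited FPKM per transcript, estimated through DESeq2 1.42.1, pooled per condition. The sources used here do not say whether replicates were summed or averaged. Of the value columns, 5 were used, and 1 that matched no sample was not. Coding lengths came from the Ensembl 115 annotation. Dividing out length and each column's unit gave whole counts for 100% of values, within 0.02. Differences were taken on log2(FPKM + 0.5) for genes whose mean reached 1 FPKM. Intervals (95%) were Clopper-Pearson for ratios, Poisson for levels, Wilson for shares and delta-method for ratios of sums, and cover counting error only. No test between conditions was possible. Besides the members, the text names from 13 lists (127 genes) those at least 2-fold changed with an interval that leaves out 1 on day 1 against 10°C or on day 5 against 20°C (at most the 4 with the narrowest intervals) and the 2 highest in mean; of tissue marker lists sums and counts are given. Members and lists were chosen with earlier results of these data known. Alternatives are described below. Calculations were tested on simulated data and made in Python 3.11.15 with NumPy 2.4.6, SciPy 1.17.1 and pandas 2.3.3. Sequences were not analysed here.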

Additional observations from a re-analysis of the deposited data

How the results depend on the processing

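No paired analysis was possible because the columns carry no replicate numbers, and for the same reason no replicate could be left out. Over 2 other pseudocounts, 2 other scalings and 2 other choices of transcript, all 360 log2 differences of members stayed within their counting interval; 6 of them, all with intervals that included 1, changed sign. The other choices of transcript could move only mlc-3 and lev-11, since they gave the same transcript for the rest. The number of members called changed with the rule. At 1.5-fold it was 1 (10°C against 20°C), 7 (day 1 against 10°C), 5 (day 5 against day 3), 6 (day 1 against 20°C) and 10 (day 5 against 20°C), in place of 0, 3, 2, 3 and 5. The 1 was higher, as were 18.9% of all genes, and the rest were lower, as were 23.4%, 26.6%, 20.4% and 29.4%. Where the interval had to leave out 1 it was 1, 8, 5, 7 and 9, and for day 3 against day 1 it was 5 in place of 2. For the 7 of day 1 against 20°C, all below 1, the share over 7387 genes was 8.98%, and the other shares stand in the report. With a pseudocount of 1, the 2-fold count for day 3 against day 1 was 1, without myo-1. On day 1 against 10°C, mlc-3 passed 2-fold on its longer transcript and under median-of-ratios scaling, and myo-1 with a pseudocount of 0.1. Without the 50 genes with most counts in the total, the members' share was 0.551%, 0.574%, 0.296%, 0.274% and 0.218% in the 5 conditions. Median-of-ratios scaling moved the median of all genes by -0.16 for day 1 against 20°C and by 0.10 for day 5 against day 3, and leaving out the 50 genes moved it by -0.13 for day 5 against 20°C. The share of all genes called at 2-fold was 21.3%, 32.4%, 12.2%, 17.5%, 31.9% and 45.1% in the order of the report, and 0%, 13.7%, 4.73%, 5.38%, 16.9% and 33.8% among genes with at least 500 counts. On the longest transcripts the ratio of light to heavy chains stayed within its intervals. The other ratios within a column could not move, since their transcripts were the same. Of the 5 genes most like unc-54, 4 were shared with a measure by summed squares. The 20°C and 10°C columns limit the precision, with 19 and 15 counts on myo-1.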
